A study of Mus musculus with 12 samples.

Results

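The proteasome genes were the 45 of 24982 gene symbols whose name is Psma, Psmb, Psmc, Psmd, Psme, Psmf or Psmg followed by a number. Psmb8, Psmb9 and Psmb10, the catalytic subunits of the immunoproteasome, were left out of them by the same rule and serve below as a comparison. The members were 16 genes of the core particle (8 Psma and 8 Psmb), 20 genes named after the regulatory cap (6 Psmc and 14 Psmd), 4 activators (Psme1 to Psme4), the regulator Psmf1 and 4 chaperones of core assembly (Psmg1 to Psmg4). They were compared in polyadenylated RNA of B lymphocytes from the spleen, taken at an age of 6 weeks from mice of 3 genotypes, with 4 libraries each. The groups were wild-type C57BL/J6 mice (WT), Eμ-Myc mice, in which an immunoglobulin heavy-chain enhancer drives a Myc transgene in the B lineage, and Eμ-Myc; PRPS2 KO mice (the knockout group), which carry the transgene and lack PRPS2. The labels do not give the sex of the mice, the background strain of the transgenic groups or the cells in which PRPS2 was deleted. PRPS2 is a phosphoribosyl pyrophosphate synthetase, which feeds nucleotide synthesis, and the series set out to catalogue the genes that Myc alters and to ask how loss of PRPS2 meets that programme.

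The proteasome degrades proteins tagged with ubiquitin. Its barrel-shaped core is built of α rings, which gate the entrance, and β rings, which hold the proteolytic sites. The cap has a base of ATPases, which unfold the substrate and thread it into the core, and a lid, which removes the ubiquitin chain. Other activators can bind the core in place of the cap, and dedicated chaperones put the rings and the base together. In B cells, as in other immune cells, interferon-inducible subunits can replace the catalytic β subunits to form the immunoproteasome.

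Values are scaled coverages, the coverage per gene in the deposited tables after division by 1 scaling factor per library, and 4 values in a row are always libraries 1 to 4 of a group. Coverage was read as depth per base, so that levels of genes of different length can be set side by side. The tables have no header that defines it, but the median coverage fell with transcript length above 1000 bases (51.3 for genes under 500 bases, 66.0 for 500 to 1000 bases, and lower in each longer class down to 16.7 over 8000 bases). Sums of coverage per library ran from 1277305.5 to 1885768.9, with 14900 to 16231 genes above 0, and the read depth of a value is not known. Prps2 matched the labels, with 97.9, 139, 123 and 140.0 in the WT libraries and 246, 199, 253 and 287 in the Eμ-Myc libraries, and 18.3, 17.0, 17.1 and 16.2 in the knockout libraries. Myc had 226 to 346 in WT libraries, 1559 to 2302 in Eμ-Myc libraries and 1099, 1718, 3017 and 3282 in knockout libraries. All 10 listed B-cell markers were detected in every library, with sums of 7476, 14048, 11908 and 7196 in WT libraries and 7962 to 9786 in Eμ-Myc libraries, so WT libraries 1 and 4 lay below WT libraries 2 and 3. Markers of other blood cells were present too. The summed T-cell markers (11 of 14 listed genes matched) were 1293, 930.1, 1026 and 3663 in WT libraries, 377, 451, 388 and 358 in Eμ-Myc libraries and 925, 1003, 207 and 206 in knockout libraries, and no listed marker was at 0 in any library. In RNA from mixed cells, fewer cells of a type and less RNA per cell cannot be told apart. The knockout libraries stood apart from each other. Libraries 3 and 4 had 9.44 and 14.5 of Fcmr and 0.111 and 0.333 of Cr2, B-cell surface receptors that stood at 343 and 287 and at 66.0 and 61.9 in libraries 1 and 2.

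The first comparison asked which proteasome genes differ between Eμ-Myc and wild-type B cells. Of the 44 members tested, 40 were higher in Eμ-Myc (adjusted p under 0.05) and 0 were lower, where 30.4% of all 12723 genes tested were called higher and 24.7% lower. The median log2 fold change of the 44 members was 0.91, beside -0.01 over all genes tested. For the same 40 members every Eμ-Myc library lay above every WT library, which held for 28.7% of all genes tested. The 4 members that were not called were Psme1, Psme2, Psma8 and Psmd10. Psmb11, the β subunit of the thymus epithelium, was not tested, since it is listed at 0 in all 12 libraries. Psma8, the α subunit of the testis, was barely detected, with 0.559 to 1.49 in WT libraries, 0.819 to 1.85 in Eμ-Myc libraries and 0.311 to 4.77 in knockout libraries. The other 43 members were at 10 or more in every library. Scaling by total coverage shifted the median over all genes by -0.18 on the log2 scale and brought that of the members to 0.72. It left 38 called higher, beside 24.1% of all genes called higher and 33.3% lower under that scaling, and placed 42 above and 2, Psme1 and Psme2, below WT. Under that scaling 42.0% of all calls were higher, against 55.2% in the fit reported here. No member was called lower under it. In the fit reported here limma gave 41 members at an unadjusted p under 0.05, all higher, beside 7722 of the 12723 genes tested in either direction.

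**Figure D1:**
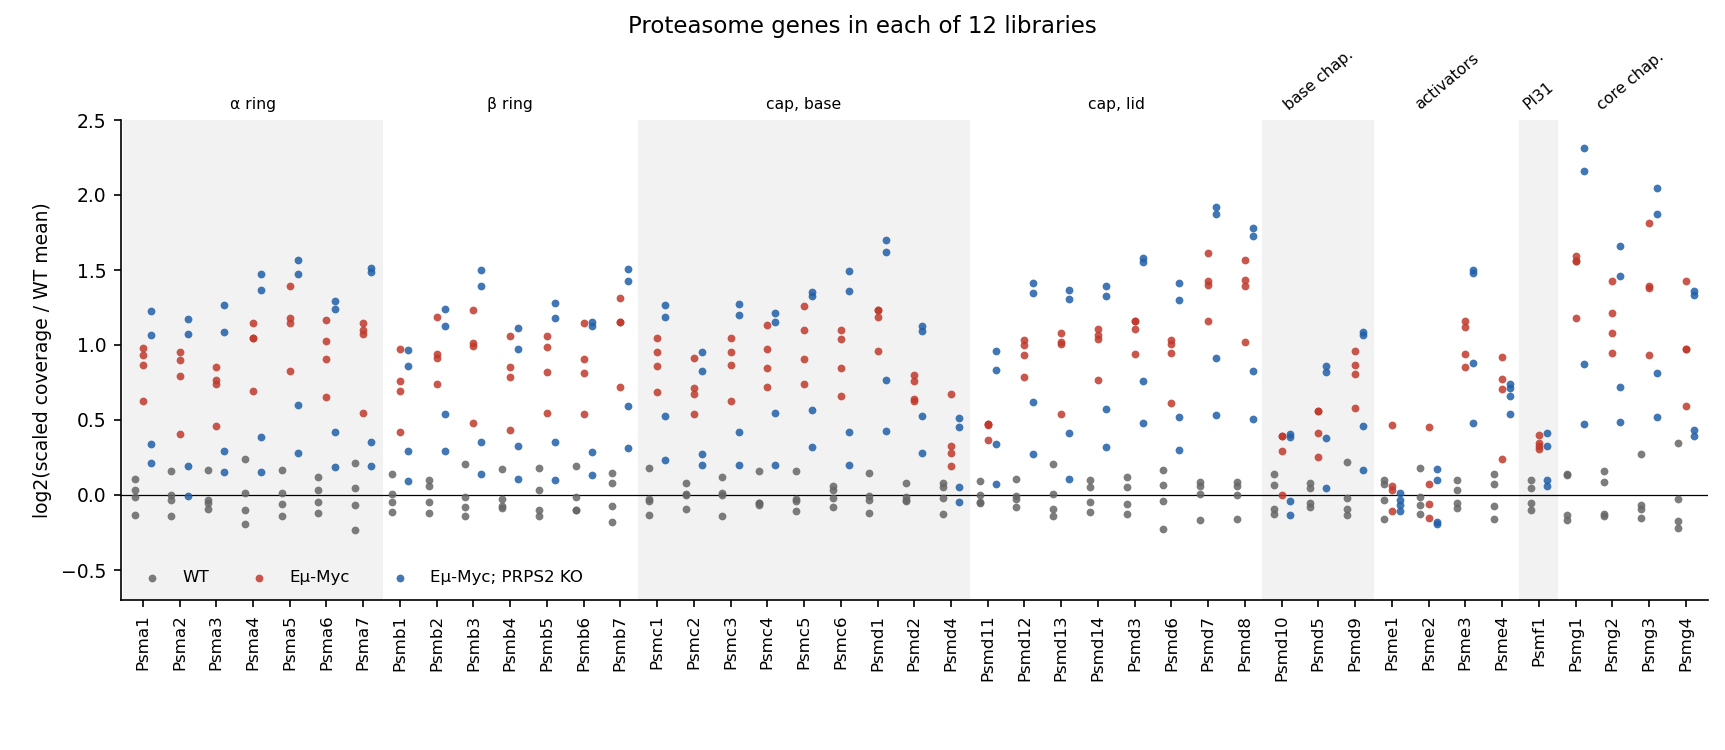
Scaled coverage of 43 proteasome genes in each library, as log2 of the ratio to the WT mean (vertical axis), with genes grouped by their place in the complex (horizontal axis). Each point is 1 library, grey for WT, red for Eμ-Myc and blue for the knockout group. The red points lie above all grey points for all genes drawn except Psme1, Psme2 and Psmd10, and the blue points of most genes split into a low and a high pair.

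The α ring rose. All 7 α subunits other than Psma8 were higher in Eμ-Myc, with log2 fold changes from 0.71 (Psma3) to 1.14 (Psma5). Psma5 was 103, 115, 93.1 and 98.4 in the WT libraries and 181, 269, 227 and 233 in the Eμ-Myc libraries, with no overlap between the groups (log2 fold change 1.14, SE 0.13, adjusted p = 9.21e-05). Psma6, the most abundant ring subunit in WT by coverage, was 402, 428, 361 and 380.4 in the WT libraries and 619, 880.3, 737 and 799.9 in the Eμ-Myc libraries (log2 fold change 0.94, SE 0.12, adjusted p = 0.000196). Eμ-Myc library 1 was the lowest of its group for both genes, and still lay above the highest WT library.

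The β ring rose with it. All 7 β subunits tested were higher, between 0.71 (Psmb1) and 1.09 (Psmb7) on the log2 scale. Among them were the 3 subunits that carry the proteolytic sites of the standard proteasome. Psmb5, the chymotrypsin-like subunit and the main target of bortezomib, was 141, 156, 129 and 125 in the WT libraries and 201, 287, 243 and 274 in the Eμ-Myc libraries (log2 fold change 0.86, SE 0.13, adjusted p = 0.000515). Psmb6, the caspase-like subunit, was 173, 199, 162 and 163 in the WT libraries and 254, 386, 306 and 326 in the Eμ-Myc libraries (log2 fold change 0.85, SE 0.14, adjusted p = 0.000662). Psmb7, the trypsin-like subunit, was 219.7, 229.9, 183 and 197 in the WT libraries and 342, 517, 463 and 461 in the Eμ-Myc libraries (log2 fold change 1.09, SE 0.14, adjusted p = 0.000182). For all 3 the lowest Eμ-Myc library, library 1, was above the highest WT library, library 2. Psmb1, a structural β subunit with the smallest fold change of the ring, was still higher, with 331, 378, 316 and 343 in the WT libraries and 457, 673, 552 and 578 in the Eμ-Myc libraries (log2 fold change 0.71, SE 0.13, adjusted p = 0.00122).

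The order of the subunits by level was much the same in both groups. The mean level in WT and in Eμ-Myc had a Spearman rho of 0.98 across the 14 ring subunits and 0.97 across 43 members, a description over genes that share libraries and gene lengths. In WT the ring subunits ran from 102 ± 9.40 (Psma5, mean ± SD, n = 4) to 393 ± 28.7 (Psma6), and in Eμ-Myc the same genes marked the ends, with 228 ± 36.1 and 759 ± 110.4. The SD of log2 coverage over the 14 ring subunits was 0.554 to 0.571 in the WT libraries, 0.490 to 0.523 in the Eμ-Myc libraries and 0.510 to 0.529 in the knockout libraries, so the subunits lay slightly closer together in both transgenic groups, with no overlap with WT. No test was made of this spread.

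**Figure D2:**
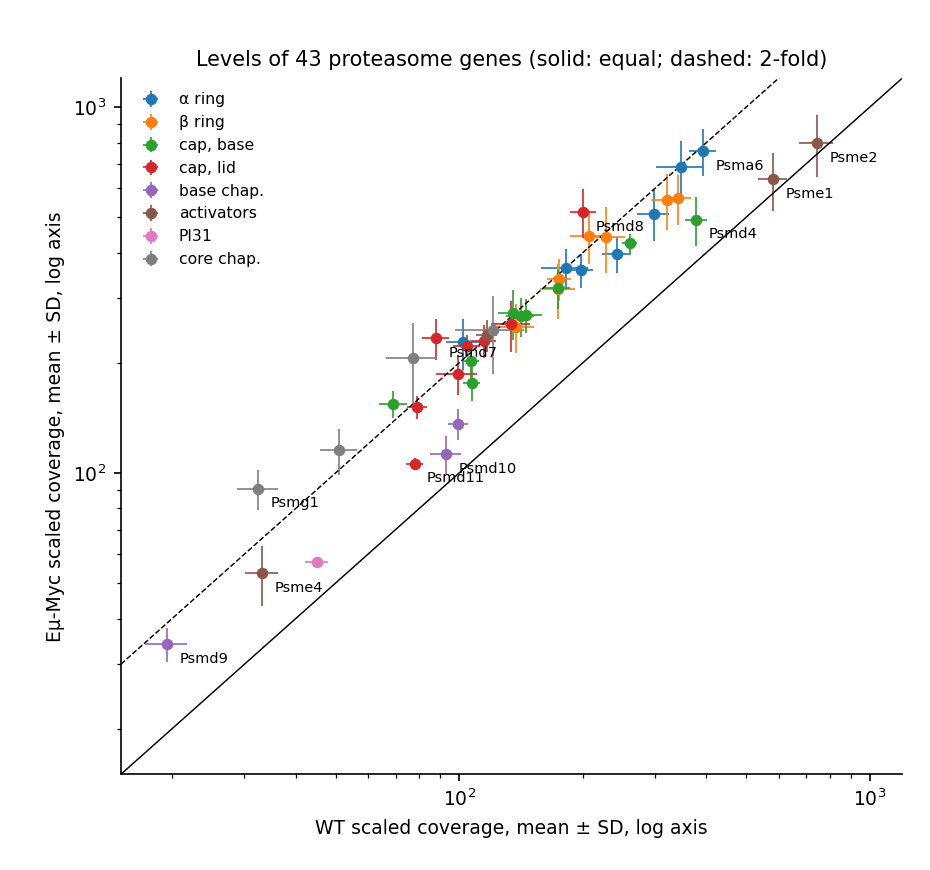
Mean scaled coverage of 43 proteasome genes in WT (horizontal) and Eμ-Myc (vertical), both on log axes, with SD over 4 libraries as bars. The solid line marks equal levels and the dashed line a 2-fold difference; most genes lie near the dashed line, and Psme1, Psme2, Psmd4, Psmd10 and Psmd11 lie nearest to the solid one among the labelled genes.

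In the base of the cap all 9 members were higher in Eμ-Myc. These are the ATPases Psmc1 to Psmc6, whose log2 fold changes lay between 0.71 (Psmc2) and 1.00 (Psmc5), the scaffold subunits Psmd1 and Psmd2, and Psmd4, a receptor for ubiquitin chains. The largest difference was that of Psmd1, with 67.5, 76.7, 69.0 and 63.6 in the WT libraries and 135, 158, 163 and 163 in the Eμ-Myc libraries (log2 fold change 1.15, SE 0.10, adjusted p = 2.11e-05). The smallest was that of Psmd4, with 373, 400.4, 347 and 393 in the WT libraries and 432, 604, 474 and 460.3 in the Eμ-Myc libraries (log2 fold change 0.37, SE 0.12, adjusted p = 0.0251). The Psmd4 groups did not overlap, but its call was not kept under every setting. Scaling by total coverage brought it to 0.19 (adjusted p = 0.108), and 1 fit of all 12 libraries gave an adjusted p of 0.0661. Without WT library 3 its log2 fold change was 0.33 (adjusted p = 0.0697), and without Eμ-Myc library 3 it was 0.38 (adjusted p = 0.0519).

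The lid rose as well. All 8 lid subunits were higher, from 0.44 (Psmd11) to 1.40 (Psmd7) on the log2 scale. Psmd7, the partner of the deubiquitinase Psmd14, was 88.4, 93.4, 78.6 and 91.9 in the WT libraries and 197, 270.1, 233 and 237 in the Eμ-Myc libraries, and its Eμ-Myc mean was 2.66 times its WT mean (log2 fold change 1.40, SE 0.11, adjusted p = 1.37e-05). Psmd8, a lid subunit placed late in its assembly, was 209, 213, 179.6 and 201 in the WT libraries and 406, 594, 528 and 542 in the Eμ-Myc libraries (log2 fold change 1.35, SE 0.13, adjusted p = 3.08e-05). Psmd14 itself, which cuts the ubiquitin chain from the substrate, was 111, 123, 106 and 119 in the WT libraries and 195, 241, 236 and 248 in the Eμ-Myc libraries (log2 fold change 0.99, SE 0.10, adjusted p = 5.61e-05). Psmd11, a scaffold of the lid, moved least, with 75.3, 83.2, 75.1 and 77.9 in the WT libraries and 100.3, 108, 108 and 108 in the Eμ-Myc libraries (log2 fold change 0.44, SE 0.08, adjusted p = 0.0017), and 1 fit of all 12 libraries gave an adjusted p of 0.0543.

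The chaperones differed among themselves. The 4 chaperones of core assembly, which build the α ring and then the half-barrel, were all higher, between 1.01 (Psmg4) and 1.47 (Psmg1). Psmg1 had the largest fold change of all 44 members tested, with 29.6, 35.5, 28.9 and 35.8 in the WT libraries and 73.6, 97.7, 95.8 and 95.5 in the Eμ-Myc libraries, a ratio of means of 2.79 (log2 fold change 1.47, SE 0.13, adjusted p = 2.06e-05). Psmg3 was 74.0, 93.5, 72.7 and 69.4 in the WT libraries and 148, 272, 203 and 202 in the Eμ-Myc libraries (log2 fold change 1.38, SE 0.18, adjusted p = 0.000186), with Eμ-Myc library 2 well above the others. Psmg4 was 107, 154, 104 and 119 in the WT libraries and 183, 325, 237 and 237 in the Eμ-Myc libraries (log2 fold change 1.01, SE 0.19, adjusted p = 0.0015). The 3 chaperones of the base, which hold the ATPases before they join, differed less. Psmd9 was 19.1, 22.7, 17.7 and 18.2 in the WT libraries and 29.0, 37.8, 34.0 and 35.4 in the Eμ-Myc libraries (log2 fold change 0.79, SE 0.13, adjusted p = 0.000703), and Psmd5 had a log2 fold change of 0.45 (adjusted p = 0.00442). Psmd10, also known as gankyrin, was 97.1, 102, 85.1 and 87.0 in the WT libraries and 92.8, 122, 114 and 122 in the Eμ-Myc libraries, with Eμ-Myc library 1 among the WT values (log2 fold change 0.27, SE 0.12, adjusted p = 0.0737). Without that library it was 0.36 with an adjusted p of 0.0174.

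The activators split into pairs. Psme1 and Psme2 form the interferon-inducible ring PA28αβ, which opens the core to peptides. Psme1 was 569.6, 625, 520.2 and 614 in the WT libraries and 595, 804, 541 and 606 in the Eμ-Myc libraries, and the groups overlapped (log2 fold change 0.12, SE 0.13, adjusted p = 0.48). Psme2 was 682, 845, 712 and 739 in the WT libraries and 670.1, 1018, 716 and 785 in the Eμ-Myc libraries, again with overlap (log2 fold change 0.08, SE 0.14, adjusted p = 0.629). The 95% intervals of these log2 fold changes were -0.18 to 0.42 and -0.23 to 0.40, and both estimates turned negative without Eμ-Myc library 2, at -0.0015 and -0.04. Psme3, the nuclear PA28γ, was 113, 125, 110.2 and 119.7 in the WT libraries and 224, 212, 254 and 262 in the Eμ-Myc libraries, a ratio of means of 2.03 (log2 fold change 1.02, SE 0.10, adjusted p = 3.88e-05). Psme4, the nuclear activator PA200, was 31.5, 34.9, 36.6 and 29.7 in the WT libraries and 56.7, 39.2, 54.2 and 62.9 in the Eμ-Myc libraries (log2 fold change 0.66, SE 0.15, adjusted p = 0.00519), with Eμ-Myc library 2 the lowest of its group. Psmf1, known as PI31 and first described as an inhibitor of the core, was 43.3, 46.4, 42.1 and 48.2 in the WT libraries and 57.2, 55.6, 59.3 and 56.6 in the Eμ-Myc libraries (log2 fold change 0.34, SE 0.09, adjusted p = 0.00934); scaling by total coverage brought it to 0.16 (adjusted p = 0.184).

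None of the catalytic subunits of the immunoproteasome was called in the fit reported here, but 2 of them were called lower under other settings. Psmb8 was 497, 621, 504 and 521 in the WT libraries and 414, 594, 429 and 439.9 in the Eμ-Myc libraries (log2 fold change -0.20, SE 0.14, adjusted p = 0.233). Psmb9 was 343, 431, 340.1 and 336 in the WT libraries and 271, 373, 266 and 286 in the Eμ-Myc libraries (log2 fold change -0.28, SE 0.14, adjusted p = 0.106). Psmb10 was 209.7, 263, 202 and 225 in the WT libraries and 199, 336, 194 and 210.2 in the Eμ-Myc libraries (log2 fold change 0.03, SE 0.18, adjusted p = 0.898). Scaling by total coverage called Psmb8 lower at -0.38 (adjusted p = 0.0174) and Psmb9 at -0.46 (adjusted p = 0.00823). Library quality weights did so too, at -0.32 (adjusted p = 0.0141) and -0.43 (adjusted p = 0.00441), and scaling by the median of ratios called Psmb9 at -0.34 (adjusted p = 0.0487). Without Eμ-Myc library 2 Psmb8 was lower at -0.32 (adjusted p = 0.0291) and Psmb9 at -0.39 (adjusted p = 0.0177), and Psmb10 changed sign to -0.16 without a call (adjusted p = 0.248). The balance of each standard subunit and the inducible one that replaces it can be read within a library, where scaling cancels. The ratio of Psmb5 to Psmb8 was 0.240 to 0.283 in WT libraries, 0.484 to 0.622 in Eμ-Myc libraries and 0.361, 0.447, 0.740 and 0.747 in knockout libraries. That of Psmb6 to Psmb9 was 0.461 to 0.505 in WT libraries, 0.934 to 1.15 in Eμ-Myc libraries and 0.652, 0.869, 1.65 and 1.61 in knockout libraries. That of Psmb7 to Psmb10 was 0.875 to 1.05, 1.54 to 2.39 and 1.40, 1.61, 2.64 and 2.65. In each pair every transgenic library stood above every WT library. The ratio of Psme3 to Psme1 gave the same order, with 0.195 to 0.212 in WT libraries, 0.263 to 0.469 in Eμ-Myc libraries and 0.287, 0.397, 0.564 and 0.588 in knockout libraries. Inducible subunits are also abundant in T cells, NK cells and myeloid cells, whose markers differed between the libraries too. The summed NK-cell markers were 356 to 1468 in WT libraries, 92.6 to 254 in Eμ-Myc libraries and 615, 455, 25.0 and 23.2 in knockout libraries. The summed myeloid markers were 9141 to 26104, 6189 to 18352 and 16963, 12489, 3342 and 1718. Of the listed markers, 10 of 11 T-cell genes, 8 of 8 NK-cell genes and 0 of 13 myeloid genes were called lower in Eμ-Myc, beside 24.7% of all genes. In the other lists 3 of 10 B-cell, 2 of 6 platelet, 2 of 6 plasma-cell and 0 of 9 erythroid markers were lower, and 1 plasma-cell marker was higher. Without WT libraries 1 and 4, which held the highest T-cell, NK-cell and myeloid sums and the lowest B-cell sums of their group, 39 members were called higher with a median log2 fold change of 0.86, beside 29.4% of all genes called higher and 21.3% lower. The part of other cells in the ratios was not tested.

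**Figure D3:**
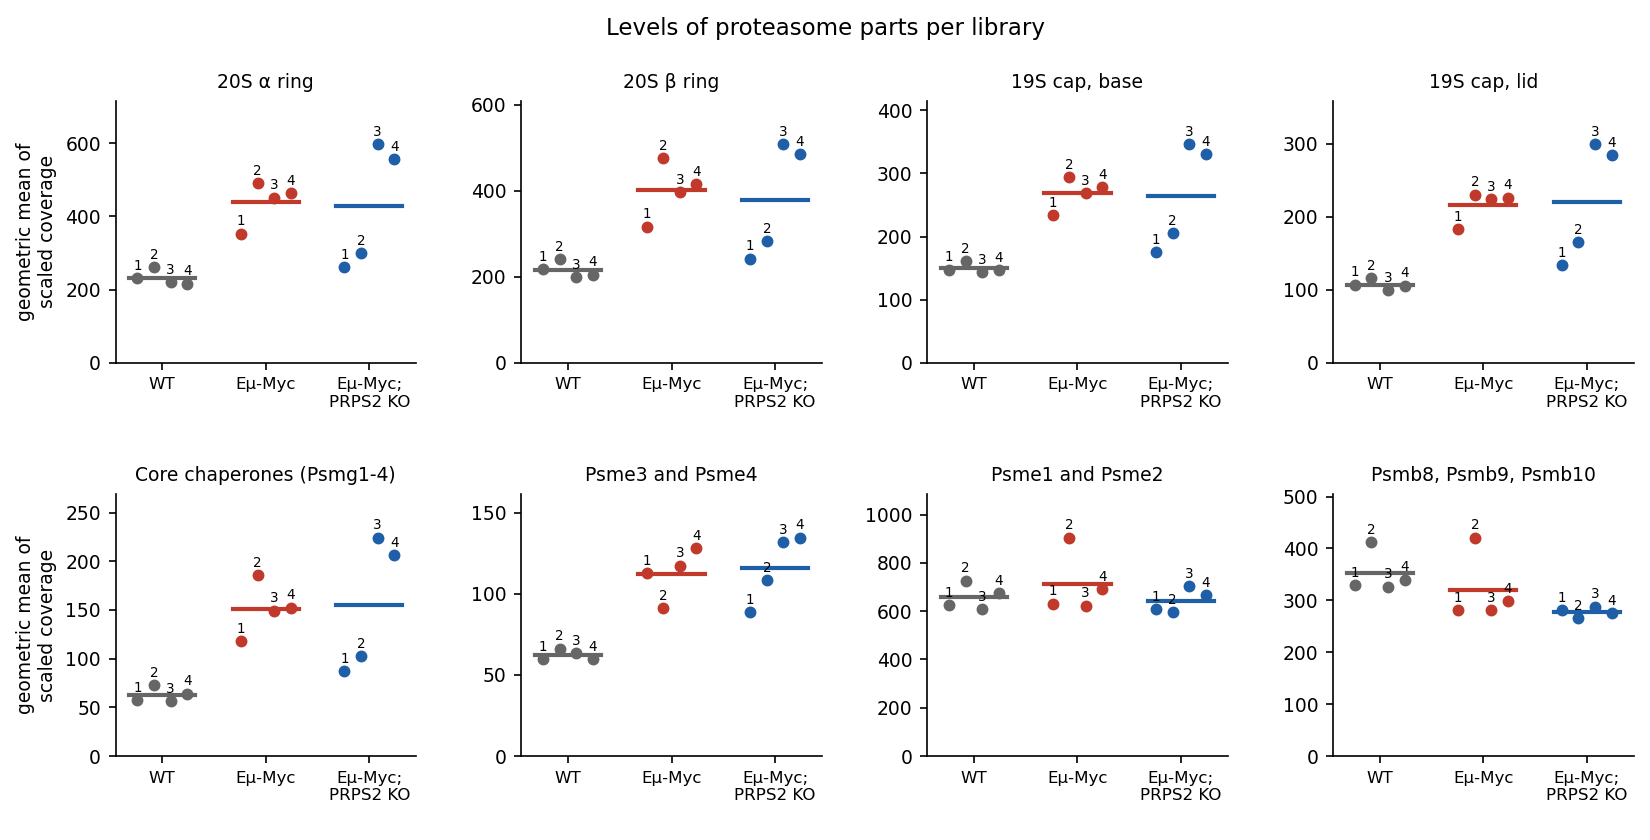
Geometric mean of scaled coverage over the genes of each part of the proteasome, per library (vertical axes, each from 0), by group (horizontal axes). Points are numbered by library, bars are the mean of the 4 points, and Psma8 and Psmb11 are left out; the rings, cap, core chaperones and Psme3 with Psme4 are higher in Eμ-Myc, while Psme1 with Psme2 overlaps across the groups. The inducible Psmb8, Psmb9 and Psmb10 overlap between WT and Eμ-Myc and lie lower in every knockout library than in every WT library.

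Other genes of the pathway, which the naming rule does not take in, moved partly with the members. Of 18 further components and cofactors 17 matched a symbol, and 11 of these were higher, 1 lower and 5 not called, beside 30.4% higher and 24.7% lower over all genes tested. The largest increase was that of Uchl5, a deubiquitinase docked on the cap, with 93.7, 66.7, 65.9 and 83.3 in the WT libraries and 201, 229, 229.8 and 239 in the Eμ-Myc libraries (log2 fold change 1.55, SE 0.13, adjusted p = 1.7e-05). Pomp, the maturation factor of the core, was 320.3, 344, 280.4 and 282 in the WT libraries and 391, 582, 457 and 472 in the Eμ-Myc libraries (log2 fold change 0.62, SE 0.13, adjusted p = 0.00355). Adrm1, a ubiquitin receptor and the docking site of Uchl5, was 73.1, 76.5, 67.4 and 72.2 in the WT libraries and 94.6, 124, 99.5 and 99.4 in the Eμ-Myc libraries (log2 fold change 0.52, SE 0.11, adjusted p = 0.00286). Sem1, the small subunit of the lid, was 519.9, 412, 325 and 353 in the WT libraries and 454, 725, 608 and 594 in the Eμ-Myc libraries (log2 fold change 0.57, SE 0.18, adjusted p = 0.0234), with WT library 1 inside the Eμ-Myc range. Its call was lost without WT library 3 or 4 or Eμ-Myc library 2, 3 or 4 (log2 fold change 0.46 to 0.56, adjusted p 0.0518 to 0.0642). Zfand5, a factor that binds and activates the complete proteasome, was lower, with 49.0, 34.7, 32.9 and 34.8 in the WT libraries and 28.8, 27.0, 30.7 and 26.1 in the Eμ-Myc libraries (log2 fold change -0.40, SE 0.14, adjusted p = 0.0355). That call did not hold without WT library 1 or any 1 Eμ-Myc library (log2 fold change -0.45 to -0.27, adjusted p 0.0501 to 0.0916).

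NFE2L1 is a transcription factor that induces proteasome genes when the proteasome is impaired, after processing by NGLY1, DDI2 and the VCP complex. Of the 11 genes listed for its axis, 2 were higher, 4 lower and 5 not called, beside 30.4% higher and 24.7% lower over all genes tested. Nfe2l1 itself was 297, 329, 309 and 269 in the WT libraries and 259.5, 226, 261 and 215 in the Eμ-Myc libraries (log2 fold change -0.33, SE 0.11, adjusted p = 0.0268), lower in Eμ-Myc, with a call that did not hold without WT library 2 or 3 or Eμ-Myc library 4 (log2 fold change -0.31 to -0.27, adjusted p 0.0656 to 0.0893). Nfe2l2, its relative in the oxidative stress response, was 95.7, 57.2, 50.7 and 58.4 in the WT libraries and 55.1, 55.2, 49.4 and 45.5 in the Eμ-Myc libraries and was not called (log2 fold change -0.31, SE 0.19, adjusted p = 0.185). Its value was -0.11 without WT library 1, the highest of its group, and -0.49 and called lower with scaling by total coverage (adjusted p = 0.0388). Vcp, the segregase that extracts substrates for the proteasome, was higher, with 149, 157, 142 and 137 in the WT libraries and 214, 227, 219 and 233 in the Eμ-Myc libraries (log2 fold change 0.61, SE 0.09, adjusted p = 0.000297). Maff, a small Maf partner of these factors, had the largest decrease among the called genes of the list, with 16.2, 7.87, 6.21 and 10.5 in the WT libraries and 3.03, 4.55, 9.24 and 1.92 in the Eμ-Myc libraries (log2 fold change -1.16, SE 0.44, adjusted p = 0.0478), but lost its call without any 1 of 6 libraries, WT 1, 2 or 4 or Eμ-Myc 1, 2 or 4 (log2 fold change -1.24 to -0.85, adjusted p 0.0639 to 0.117). Among 6 ubiquitin genes and activating enzymes 3 were higher and 3 not called, beside 30.4% of all genes called higher. The largest increase was that of Rps27a, a fusion of ubiquitin and a ribosomal protein, with 1844, 2178, 1912 and 2194 in the WT libraries and 2431, 3282, 3182 and 3322 in the Eμ-Myc libraries (log2 fold change 0.58, SE 0.13, adjusted p = 0.00356).

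Because the members moved together, their promoters were read for 4 short motifs. RefSeq start sites of build GRCm38.p6 gave an entry for 37 of the 45 members, each with the 250 bases before the start and 50 after it. Psma8, Psmb1, Psmb2, Psmb7, Psmc3, Psmd3, Psmd7 and Psmg2 had no entry. The motifs were CACGTG, the E-box bound by MYC with MAX, TGACNNNGC, the element of NFE2L1 and NFE2L2, CCAAT, the box of NF-Y, and CCGGAA, a core bound by ETS factors, each sought on both strands with overlaps allowed. CACGTG stood in 3 of 37 members (8.11%; Psma4, Psmd9 and Psme3), beside 7.15% of all 32851 entries and 11.9% of the 9807 tested genes with an entry. TGACNNNGC stood in 6 members (16.2%), beside 12.4% and 17.2%, and CCAAT in 13 (35.1%), beside 37.4% and 43.4%. CCGGAA stood in 20 members (54.1%), beside 14.9% of all entries, 31.8% of the tested genes and 37.8% of the 3037 genes with an entry that were called higher in Eμ-Myc. A match is a description of letters in this window, and binding was not measured. The 250 bases before the start are shown for Psma5 and Psmd1, the members of the α ring and the base with the largest fold change, for Psmg1, the largest of all, and for the activators Psme3, which rose, and Psme1, which was not called. The last 3 were chosen after their values were seen. Capitals mark the motifs and each sequence reads 5′ to 3′ toward its gene, from chr3:108256676-108256925 (plus strand), chr1:86064369-86064618 (plus strand), chr16:95990961-95991210 (minus strand), chr11:101315963-101316212 (plus strand) and chr14:55578244-55578493 (plus strand).
Psma5: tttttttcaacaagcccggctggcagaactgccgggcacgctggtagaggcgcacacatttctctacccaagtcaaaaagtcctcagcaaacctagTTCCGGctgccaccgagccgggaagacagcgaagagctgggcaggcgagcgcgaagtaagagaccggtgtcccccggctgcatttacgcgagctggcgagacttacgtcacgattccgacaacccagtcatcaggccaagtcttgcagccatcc
Psmd1: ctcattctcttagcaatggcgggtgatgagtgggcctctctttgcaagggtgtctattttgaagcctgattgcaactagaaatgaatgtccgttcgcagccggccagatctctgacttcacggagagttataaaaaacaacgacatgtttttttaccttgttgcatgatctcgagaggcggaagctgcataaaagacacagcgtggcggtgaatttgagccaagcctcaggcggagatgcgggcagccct
Psmg1: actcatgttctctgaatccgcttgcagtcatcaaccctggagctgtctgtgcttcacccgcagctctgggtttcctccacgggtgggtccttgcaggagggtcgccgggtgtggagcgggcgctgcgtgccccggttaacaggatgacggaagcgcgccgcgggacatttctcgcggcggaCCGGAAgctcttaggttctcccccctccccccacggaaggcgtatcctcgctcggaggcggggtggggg
Psme3: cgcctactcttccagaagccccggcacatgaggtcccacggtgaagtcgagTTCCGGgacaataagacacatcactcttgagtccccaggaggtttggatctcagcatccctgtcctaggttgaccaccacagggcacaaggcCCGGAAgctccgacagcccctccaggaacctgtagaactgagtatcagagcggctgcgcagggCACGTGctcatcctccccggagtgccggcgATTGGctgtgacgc
Psme1: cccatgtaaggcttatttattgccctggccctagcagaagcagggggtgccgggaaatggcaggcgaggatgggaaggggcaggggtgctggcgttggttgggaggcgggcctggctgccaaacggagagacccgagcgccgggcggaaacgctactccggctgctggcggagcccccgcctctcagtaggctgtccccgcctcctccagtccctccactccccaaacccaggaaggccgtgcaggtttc
Psma5 and Psmg1 each hold 1 CCGGAA in the 250 bases shown, on opposite strands. Psme3 holds 2 CCGGAA, 1 CACGTG and 1 CCAAT, and Psmd1 and Psme1 hold none of the 4 motifs there.

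The second comparison asked whether loss of PRPS2 in Eμ-Myc B cells changes these genes. By limma 0 of the 44 members tested were called higher or lower, and 0 had an unadjusted p under 0.05, beside 121 of 12551 genes tested. Over all genes 0% were called higher and 0.00797% lower, which is Prps2 alone. The log2 fold changes of the members lay between -0.18 and 0.11 with a median of -0.10, 38 below and 6 above 0. The 3 members with the smallest p were Psme1 (log2 fold change -0.16), Psmf1 (-0.12) and Psmc2 (-0.14), each with an adjusted p of 1.00. Psmc2, an ATPase of the base, was 156, 202, 171 and 176 in the Eμ-Myc libraries and 123, 129.7, 208 and 191 in the knockout libraries. This does not show that the groups were alike, since the intervals were wide. The 95% interval of the log2 fold change was -0.78 to 0.53 for Psmb5, -0.83 to 0.65 for Psmd7 and -0.96 to 0.92 for Psmg1; for Psme1 the interval was -0.49 to 0.16. Library quality weights, which gave knockout libraries 1 and 2 weights of 0.0817 and 0.129 and libraries 3 and 4 weights of 3.20 and 7.76, called 34 members higher with a median log2 fold change of 0.34, beside 31.2% of all genes called higher, 28.3% lower and a median of 0.04. Without knockout libraries 1 and 2, 12 members were called higher and 0 lower, beside 12.3% and 16.4% of all genes, and without libraries 3 and 4, 0 were called higher and 2 lower, beside 2.26% and 1.95%.

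The 4 knockout libraries straddled the Eμ-Myc group. The geometric mean of 43 members was 136, 152, 129.6 and 135 in the WT libraries and 212, 278, 254 and 262 in the Eμ-Myc libraries, and 162, 189, 326 and 311 in the knockout libraries. Knockout libraries 1 and 2 lay between WT and Eμ-Myc, and libraries 3 and 4 above all Eμ-Myc libraries. Gene by gene, libraries 1 and 2 were below every Eμ-Myc library for 39 of 43 members, the exceptions being Psme1, Psme3, Psme4 and Psmd5, and libraries 3 and 4 were above every Eμ-Myc library for 31. Both held for 29 of the 44 members tested, beside 17.0% of all genes tested, a pattern that was looked for after the values were seen. Library 1 was the lowest of the knockout group for 42 of 43 members, and library 3 the highest for 37. The SD of log2 coverage had a median over the members of 0.11 for WT, 0.20 for Eμ-Myc and 0.54 for the knockout group, and was larger in the knockout group than in Eμ-Myc for 40 members, all but Psme1, Psme2 and Psme4. Over all genes tested the median SD was 0.21 for Eμ-Myc and 0.39 for the knockout group. Apart from the 17.0%, no share over all genes was counted for the orders above. These counts therefore cannot be called particular to the members.

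The split ran through every large part of the complex. The α ring had a geometric mean of 261, 300.1, 596 and 555 in the knockout libraries, against 352 to 489.6 in Eμ-Myc and 216 to 261 in WT. For the lid these values were 134, 165, 299 and 285, against 183 to 230.4 and 99.7 to 116. For the chaperones of core assembly they were 86.8, 103, 224 and 206, against 118 to 185 and 56.4 to 72.5. Psmg1 had the largest ratio of highest to lowest knockout library among the 43 members at 10 or more in every library, with 45.0, 59.4, 161 and 145 in the knockout libraries. Psmb5 was 147, 176, 335 and 312 and Psmd7 127, 166, 333 and 323, with the same split into pairs. Psme4 was an exception, with 48.1, 54.4, 52.4 and 55.5, all inside the Eμ-Myc range. Psme1 was another, with 569, 541, 586 and 556, and Psme2 had 651, 656, 841 and 799. Knockout libraries 1 and 2 also held more T-cell, NK-cell and myeloid marker RNA than libraries 3 and 4 (T-cell sums of 925 and 1003 against 207 and 206), and less Myc. Eμ-Myc library 2, the highest of its group for 30 of 43 members (not counted over all genes), had a myeloid sum of 18352, the highest of its group too. The part of these cells in the split was not tested. Summed B-cell markers were 7765, 8160.2, 7198 and 7513 in the knockout libraries, higher in libraries 1 and 2 than in 3 and 4 but by a smaller ratio than the T-cell, NK-cell and myeloid sums, and Fcmr and Cr2 among them split in the same direction.

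**Figure D4:**
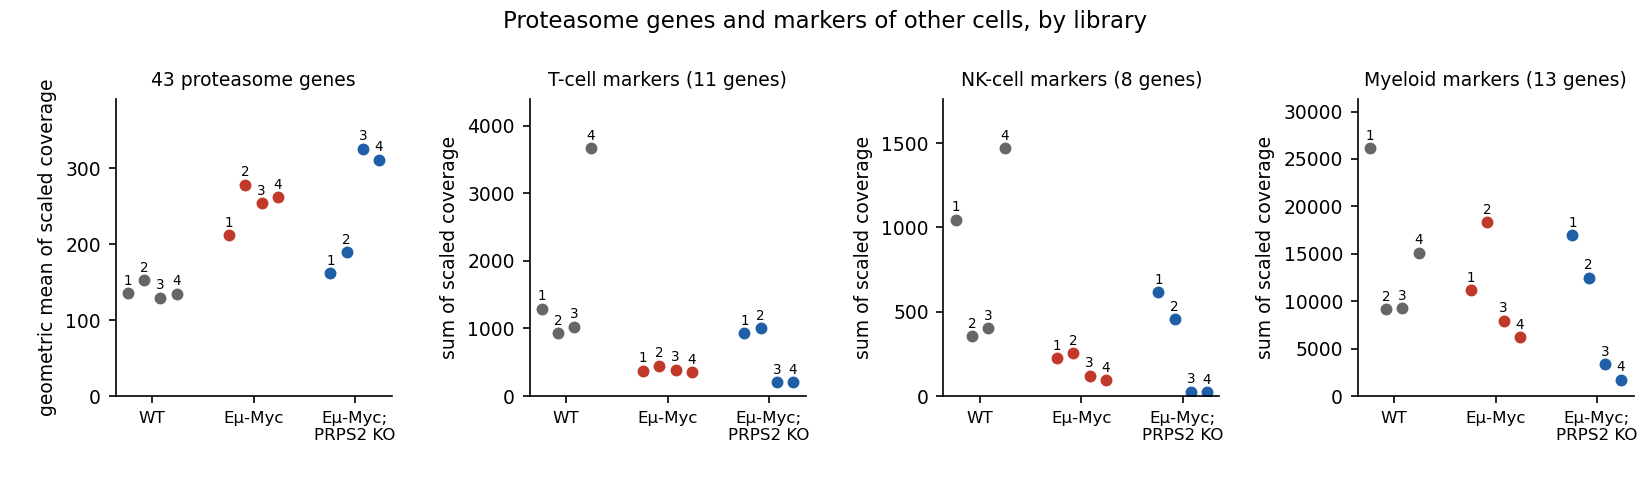
Geometric mean of scaled coverage of 43 proteasome genes and summed scaled coverage of T-cell, NK-cell and myeloid marker genes (vertical axes, each from 0) in the 12 libraries, numbered within groups (horizontal axes). Knockout libraries 3 and 4 have the highest proteasome level of all 12 libraries and the lowest sums of the 3 marker lists, while Eμ-Myc library 2 combines a high proteasome level with a high myeloid sum.

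The knockout group was also set against WT, a comparison that shares its WT libraries with the first. Of 44 members tested, 20 were higher and 0 lower, beside 19.7% of 12692 genes called higher and 9.60% called lower. All 20 were among the 40 called in the first comparison. The median log2 fold change was 0.79, at an unadjusted p under 0.05 there were 37 members, all higher, beside 6347 of the 12692 genes in either direction, and for 25 of 44 members every knockout library lay above every WT library, beside 22.2% of all genes tested. By part, 3 of 14 standard ring subunits, 5 of 9 base subunits, 6 of 8 lid subunits, 0 of 3 base chaperones, 4 of 4 core chaperones and 2 of 4 activators were called higher. Single libraries moved this number, which became 38 without knockout library 1 (29.6% of all genes called higher), 28 without library 2 (19.7%), 1 without knockout library 3 (5.12%) or 4 (4.66%), 1 without WT library 1 (5.95%), 2 (4.60%) or 3 (4.47%), and 2 without WT library 4 (8.11%). Without knockout libraries 1 and 2 it was 41 (35.7% of all genes), and without libraries 3 and 4 it was 9 (8.24%). Without WT libraries 1 and 4 limma called 0 (0.0243%), with 11 members at an unadjusted p under 0.05. The replicate block gave 5 (11.3%). Markers of other cells differed in this comparison as well. Of 6 platelet markers 5 were called lower, beside 9.60% of all genes, with sums of 267, 411, 386 and 92.5 in the WT libraries and 148, 42.7, 38.6 and 41.9 in the knockout libraries. None of the 11 T-cell, 8 NK-cell, 13 myeloid and 9 erythroid markers was called, 1 of 10 B-cell markers was called lower and 1 of 6 plasma-cell markers higher. The estimates of all 11 T-cell and all 8 NK-cell markers were nonetheless lower, with median log2 fold changes of -3.20 and -2.47. Myeloid markers were lower for 11 and higher for 2 (median -1.15), and erythroid markers lower for 5 and higher for 4 (median -0.57). The part of these cells in the counts was not tested.

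Among the members called in this comparison, Psmd7 had a log2 fold change of 1.31 (SE 0.31, adjusted p = 0.0261), Psmg1 of 1.45 (SE 0.41, adjusted p = 0.0367) and Psmd1 of 1.12 (SE 0.29, adjusted p = 0.0297). Each of these standard errors was larger than that of the same gene in the first comparison. Psma5 (0.98, adjusted p = 0.0413), Psmb7 (0.96, adjusted p = 0.0385) and Psmg4 (0.90, adjusted p = 0.0425) passed more narrowly. All but Psmd7 lost their call with the replicate block (adjusted p 0.0528 to 0.072). These 6 genes lost their call without any 1 WT library and without knockout library 3 or 4, with adjusted p up to 0.113. Psme4 was the steadiest, at 48.1, 54.4, 52.4 and 55.5 in the knockout libraries (log2 fold change 0.66, SE 0.12, adjusted p = 0.0119), and kept its call without any 1 library. Psme3 was higher too (log2 fold change 1.08, SE 0.23, adjusted p = 0.0204). Its call was lost without WT library 1, 2 or 3 or knockout library 3 or 4 (log2 fold change 0.95 to 1.12, adjusted p 0.0559 to 0.0646). Psmb5 (0.73, adjusted p = 0.0708), Psmb6 (0.68, adjusted p = 0.0706), Psmb1 (0.56, adjusted p = 0.0698), Psmd9 (0.69, adjusted p = 0.0522) and Psmd11 (0.55, adjusted p = 0.0659) missed the threshold and passed it without knockout library 1, with adjusted p from 0.0117 to 0.0188. Psmd4 (0.24), Psmf1 (0.23), Psmd10 (0.16) and Psma8 (0.30) were not called in the fit reported here. Psme1 had a log2 fold change of -0.04 with a 95% interval of -0.29 to 0.20, and Psme2 of -0.02 with -0.33 to 0.29. Of the inducible subunits Psmb9 was called lower in the knockout group, with 293, 245, 235 and 236 (log2 fold change -0.52, SE 0.13, adjusted p = 0.0302). Psmb8 (-0.35, adjusted p = 0.0519) and Psmb10 (-0.14, adjusted p = 0.372) were not called. The Psmb9 call was not followed across settings. Over all genes the share called lower was 9.60% in this fit and 0.247% to 1.90% without any 1 WT library.

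**Figure D5:**
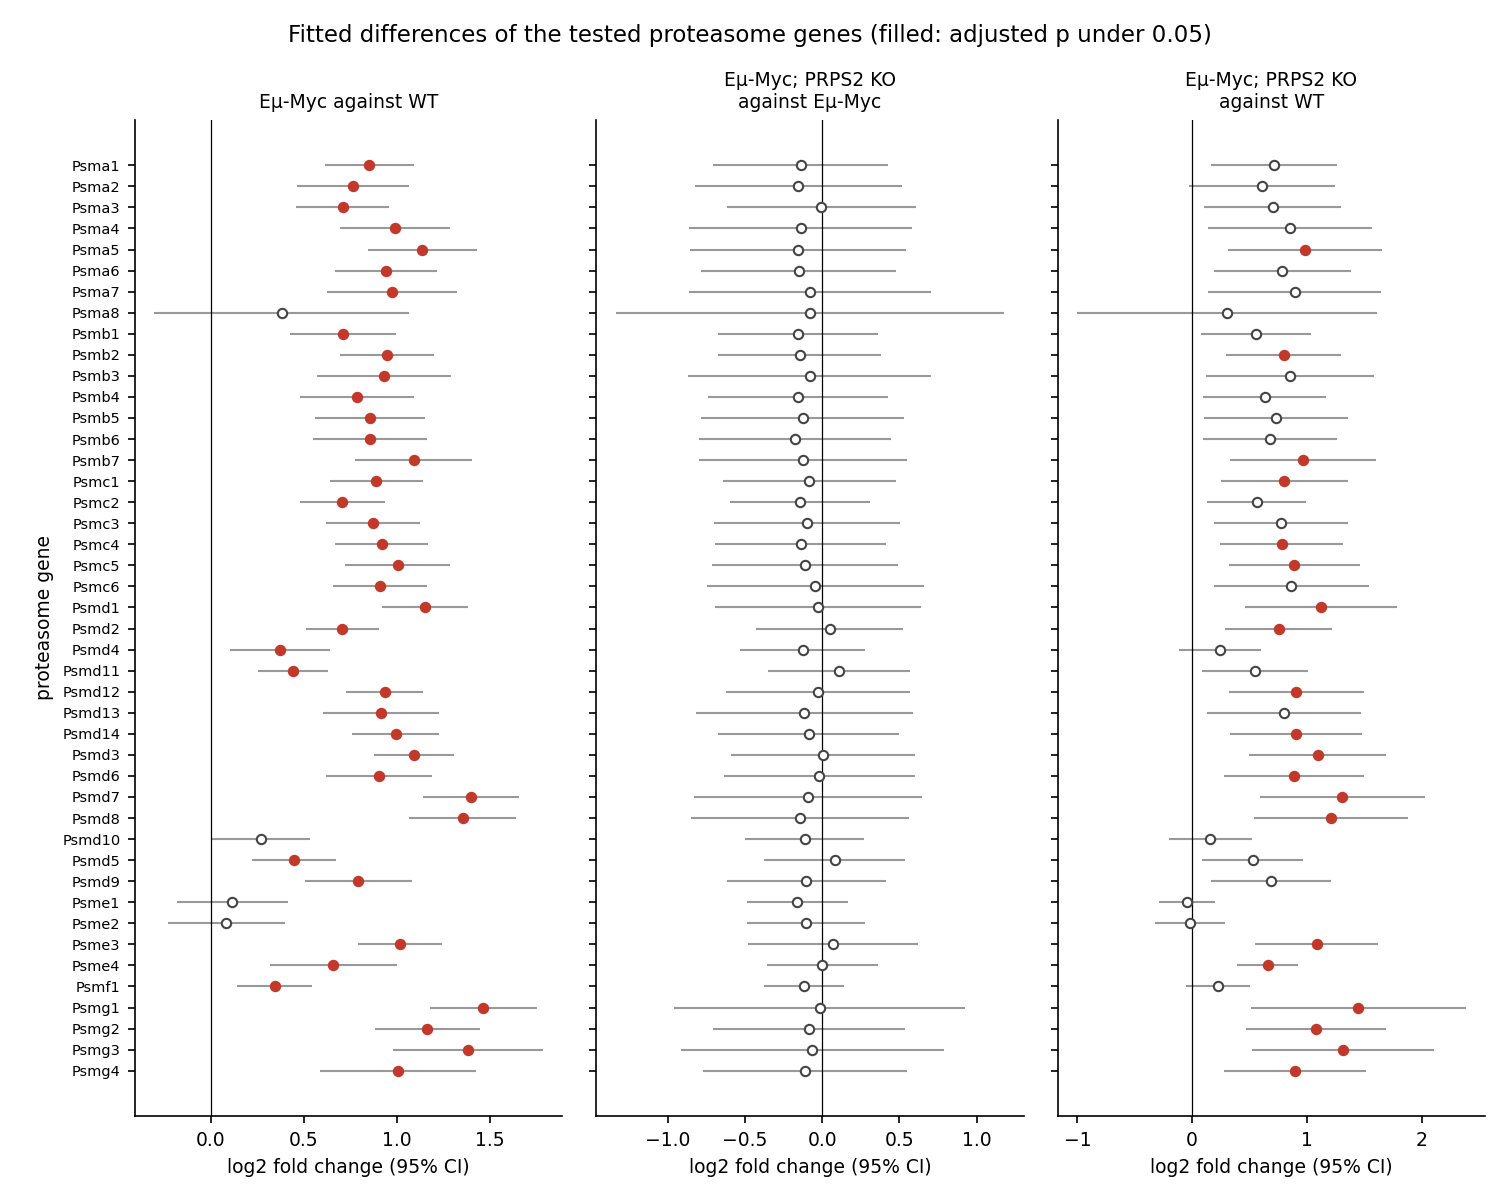
Fitted log2 fold changes of the 44 tested proteasome genes with 95% confidence intervals (horizontal axes, on different scales) in the 3 comparisons, by gene (vertical axis). Filled red points have an adjusted p under 0.05 (40, 0 and 20 genes) and open points do not; the intervals are narrower in the first comparison than in those with the knockout group for most genes.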

How the data were processed

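Directional libraries of polyadenylated RNA were made from splenic B lymphocytes, per the labels' protocols, with 4 replicates per genotype; whether each is 1 animal is not stated, so p-values measure the spread between these samples. The authors deposited 1 table per library with a signal per gene, read here as coverage, for 24982 symbols; 91.6% of values above 0 were not whole numbers, so no count model was used. Per the submitters' processing notes, build mm10, DESeq and R 4.3.3 were named without a role; the aligner and annotation are not given in the sources used here. Annotation choices could split reads of near-identical copies such as retrocopies.

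Each library was divided by a factor from trimmed means of log ratios (unweighted, with the outer 30% of ratios and 5% of means removed on either side). Genes that reached 1 in 4 or more of the 8 libraries of a comparison entered limma 3.58.1 in R 4.3.3, fitted on log2(scaled coverage + 0.5), with a trended, robust prior, two-sided, and Benjamini-Hochberg adjustment over all genes tested; log2 fold changes are on that scale. Python 3.11.15 with pandas 2.3.3 and matplotlib 3.10.9 made tables and figures. The fit was tested on simulated data with independent noise per gene, and the spread of the reference group (WT or Eμ-Myc) in both groups. That setting leaves out the wider spread of the knockout group and deviations shared between genes. It therefore does not bear on how the fit handles the knockout libraries. Calls at an adjusted p under 0.05 were repeated under other scalings, filters, pseudocounts (0.1 and 2), 1 fit of all 12 libraries, library quality weights, a replicate block and without each library. Same-numbered knockout and Eμ-Myc libraries deviated from their group means together to differing degrees (r of 0.66, 0.19, 0.25 and 0.61 across genes). The fit reported here is unpaired in every comparison. Only the replicate block treated the numbers as pairs. The best-matching number was 1, 1, 4 and 4 for replicates 1 to 4, so replicates 2 and 3 matched another number best. This pairing rests on the values, not on the labels, and the block changed no call between these groups. Named genes were Prps2, Myc, in each part the largest and smallest fold change, the catalytic subunits, activators, Psmf1, members not called or not tested, the 3 smallest p between the transgenic groups, and, of the pathway lists, set genes and called extremes. Other named members, and leaving out pairs of libraries, were chosen after seeing the data. The members and lists were chosen with earlier results of these data known.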

Additional observations from a re-analysis of the deposited data

Results flagged for a closer look

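Across 132 groups of 4 libraries of the 44 members tested, 5 had a library far from the other 3. Chance would give about 6.6 if the groups were independent. The members share libraries and moved together, so this number cannot say whether a library stands apart. Eμ-Myc library 1 stood low for 4 of the 5. It had 100.3 of Psmd11 against 108 to 108 in the others, 73.6 of Psmg1 against 95.5 to 97.7, 507 of Psma7 against 731 to 768, and 195 of Psmd13 against 269.8 to 283. It was also the lowest of its group for 38 of 43 members, an order that was not counted over all genes. WT library 2 stood high for Psmc4, with 158 against 135 to 136 in the others. In all 5 cases the Eμ-Myc libraries remained above the WT libraries.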

How the results depend on the processing

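Between Eμ-Myc and WT the number of members called higher was 37 (all 12 libraries in one fit, 26.6% of all genes higher and 16.3% lower) to 41 (library quality weights, 36.4% and 32.8%) under the other settings, 39 to 41 without each library, and 39 without WT replicates 1 and 4; their median log2 fold change ran from 0.72 (total coverage) to 0.99 (without Eμ-Myc library 1). Psme1 was -0.066 with total coverage scaling and -9.3e-05 with quality weights, and -0.0015 to 0.19 without each library. Psme2 was -0.099 and -0.037 under these settings, and -0.040 to 0.16 without each library. Psmb10 was -0.15 with total coverage, -0.031 with the median of ratios, -0.15 with quality weights, -0.013 without WT replicates 1 and 4, and -0.16 to 0.11 without each library. One fit of all 12 libraries lost the calls of the members Psmd4, Psmd5 and Psmd11 and, of the other named genes, Nfe2l1, Sem1 and Maff, and quality weights those of Maff and Zfand5 while adding Psmd10.

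Between the knockout group and Eμ-Myc the calls were 0 higher and 0 lower under the other settings and without each library, except for 34 higher with quality weights; 12 were higher without knockout replicates 1 and 2 (12.3% of all genes), and 2 lower without replicates 3 and 4 (1.95% of all genes). The median was -0.10 in the fit reported, -0.27 to 0.09 without each library, 0.38 without knockout replicates 1 and 2, and -0.56 without 3 and 4. Psmf1 was 0.012 with quality weights and 0.024 without knockout replicates 1 and 2, and Psmc2 was 0.18 in both. Myc was called higher with quality weights (0.58, adjusted p = 0.0041) and without knockout replicates 1 and 2 (0.73, adjusted p = 0.0166), and was -0.46 without replicates 3 and 4 and -0.087 to 0.44 without each library.

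Between the knockout group and WT the count of 20 became 37 with all 12 libraries in one fit (27.1% of all genes higher and 19.9% lower), 5 with the replicate block, 41 with quality weights (41.5% and 41.2%), 41 without knockout replicates 1 and 2, 9 without 3 and 4, 0 without WT replicates 1 and 4, and 1 to 38 without each library. Psmd10 was -0.082 without knockout replicates 3 and 4. With quality weights Psmd10, Psmd4 and Psmf1 were called higher, at 0.38 (adjusted p = 0.0017), 0.47 (adjusted p = 0.000278) and 0.40 (adjusted p = 0.000595). The same genes were called higher without knockout replicates 1 and 2, at 0.40 (adjusted p = 0.0139), 0.48 (adjusted p = 0.00349) and 0.37 (adjusted p = 0.0173). Psme2 was 0.082 with quality weights, 0.14 without knockout replicates 1 and 2, and -0.087 to 0.042 without each library. The numbers of these libraries did not mark pairs (r of 0.40, -0.42, 0.14 and -0.06, and 0.23, -0.10, 0.26 and 0.14 for Eμ-Myc and WT). The replicate block changed 8 of 67 results: this count, Psma5, Psmb7, Psmd1, Psmg1 and Psmg4 here, and Psmb9 (adjusted p = 0.0283) and Maff (adjusted p = 0.0931) in Eμ-Myc against WT. The cause was not tested in any of these cases. Without read counts, the precision of low values such as Psma8 is unknown, and 4 libraries per group leave small differences undetected.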
